A study of Mus musculus with 12 samples.

Results

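The eyelids of Tabby mouse embryos were compared between the embryonic stages E15.5 and E14.5, counted in days of gestation, on the 2 arrays titled as E15.5 Tabby and the 2 titled as E14.5 Tabby, which are 4 of the 12 arrays of the study. Tabby embryos carry a mutation of the X-linked gene for ectodysplasin (Eda). All embryos were of the strain given as C57BL6/J, the wild-type groups at the same stages differ in genotype only as labelled, and the labels call each pair of arrays biological replicates without giving litter, sex or the number of embryos behind an array. The title of the study concerns targets of Eda during development of the Meibomian gland, the oil gland of the eyelid. The labels' treatment text describes footpad skin at other ages, whereas titles, sources and tissue fields all say eyelids, and the latter were followed.

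Ectodysplasin is a ligand of the tumour necrosis factor family that signals through its receptor Edar to NF-kappaB in the epithelium of developing skin appendages. Tabby mice lack signalling by this ligand and have missing or malformed hair types, teeth and glands, the Meibomian glands of the eyelid among them. In the mouse embryo the lid folds grow over the eye and fuse during late gestation, while their surface epithelium stratifies and begins to keratinize and the dermis and lid muscle mature beneath it. The change between the stages therefore covers growth, closure and differentiation of several tissues sampled as a whole, in which a different number of cells of a type and a different amount of RNA per cell cannot be told apart.

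Eyelid RNA was labelled with Cy3 and a common reference with Cy5, and each probe's level is given as log2 of eyelid over reference, so that 0 is the level of the reference. The reference combined RNA of 11 cultured mouse cell lines with RNA of embryonic stem cells. Of 42006 probes of 60 bases, 32537 passed the scanner software's test of standing well above background, in the eyelid channel, on both arrays of at least 1 stage, and 32536 of these had values for testing. On the 4 Tabby arrays 76.3 to 79.1% of probes were above background, and no probe was saturated in the eyelid channel. The replicates correlated at r = 0.992 over probes at E14.5 and r = 0.989 at E15.5. Each slide carried the arrays of a single stage, so the stages cannot be told apart from the slides in any value below, and p-values measure only the spread between these samples.

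Between E14.5 and E15.5 the changes of at least 2-fold in the Tabby eyelid were mostly gains. By limma across all tested probes, with the spread pooled over all 6 groups, 4008 probes (12.3%) changed at an adjusted p under 0.05. Of these, 2405 (7.39%) were higher and 1603 (4.93%) lower at E15.5, with median log2 changes of 0.55 and -0.30. The median over all tested probes was -0.01. The asymmetry grew with the size of the change. At 1.5-fold or more, 1113 called probes were higher and 145 lower. At 2-fold or more there were 511 higher (1.57% of tested probes) and 26 lower (0.0799%), at 4-fold or more 102 and 3, and at 8-fold or more 34 and 0. Without replicate 1 at E15.5 the calls numbered 903 and those of at least 2-fold 307, without E14.5 replicate 1 the calls numbered 1068, and without E14.5 replicate 2 they numbered 1212. The share of higher calls also moved with the scaling, from 60% to 91.1% with median centring (641 higher, 63 lower) and to 48.4% with the scanner software's own ratio (2515 higher, 2683 lower). With those 3 arrays left out in turn the share was 80.2 to 88.5%. At 2-fold or more, higher calls outnumbered lower calls under all 3 scalings, by 421 to 14 with median centring and by 741 to 66 with the software's ratio.

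**Figure D1:**
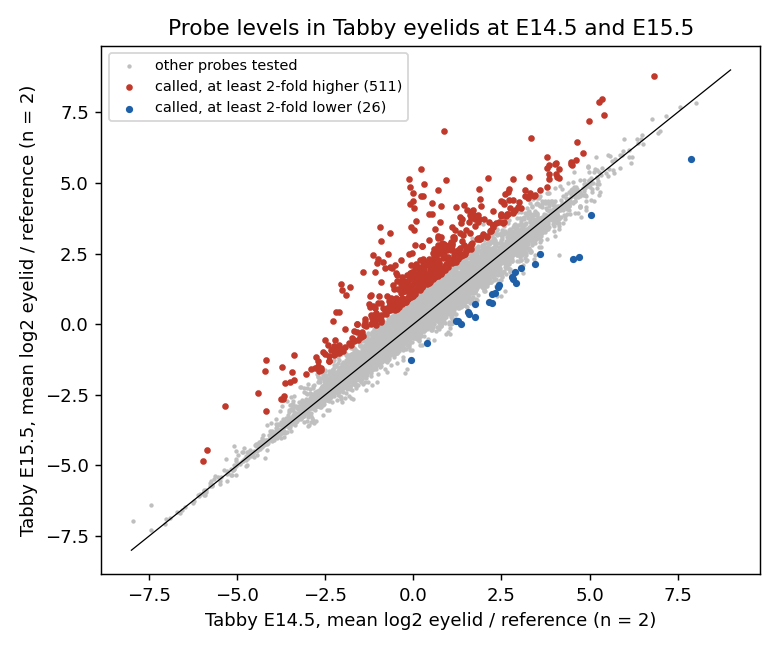
Mean log2 eyelid over reference of each tested probe in Tabby eyelids at E14.5 (horizontal axis) and E15.5 (vertical axis), 2 arrays each; the line marks equal levels. The 511 probes called at least 2-fold higher (red) include a group that stood near 0 at E14.5 and between 4 and 7 at E15.5, and the 26 called at least 2-fold lower (blue) lie mostly at levels above 0.

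The probes with the strongest change carry the comparison. The array names its probes by number only, so most cannot be given a gene here. The 60-base sequences below are those of the 3 highest and the 3 lowest changes among probes above background on all 4 arrays, printed so that the measured transcripts can be traced; no base is marked.
Z00077092-1: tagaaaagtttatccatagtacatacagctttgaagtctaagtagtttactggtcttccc
Z00042903-1: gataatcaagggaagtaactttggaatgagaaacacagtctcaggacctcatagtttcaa
Z00024307-1: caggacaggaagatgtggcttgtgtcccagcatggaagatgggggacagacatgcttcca
Z00023199-1: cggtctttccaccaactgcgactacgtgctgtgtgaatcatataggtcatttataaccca
Z00040042-1: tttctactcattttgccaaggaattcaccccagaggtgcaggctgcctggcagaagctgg
Z00047077-1: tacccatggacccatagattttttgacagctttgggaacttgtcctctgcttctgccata

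The 8 highest changes were those of probes with E14.5 means from below the reference level, as in Z00024307-1, to slightly above it, which ended far above it a day later. Probe Z00077092-1 read 0.96 and 0.79 on the E14.5 arrays and 7.24 and 6.42 on the E15.5 arrays, and reached 7.94 and 7.74 at E16.5. Its means were 0.87 ± 0.13 and 6.83 ± 0.58 (SD, n = 2), a log2 change of 5.95 (SE 0.30, limma adjusted p = 0.000147), or 62-fold. The E15.5 arrays therefore stood over 5 log2 units above both E14.5 arrays. The size of this change depends on the background treatment: it was 2.49 with the scanner software's processed signals, 2.59 with the authors' deposited values and 8.31 from the eyelid channel alone.

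Probe Z00042903-1 read 0.18 and 0.24 at E14.5 and 6.07 and 4.92 at E15.5, a log2 change of 5.29 (SE 0.47, limma adjusted p = 0.000544), or 39-fold. Its E16.5 values were 7.80 and 7.71, above both E15.5 values. Probe Z00024307-1 started below the reference, at -0.80 and -1.09, and rose to 3.78 and 3.10, a log2 change of 4.38 (SE 0.20, limma adjusted p = 0.000141). This probe went from the weaker side of the reference to the stronger side within a day. The other 5 changes were 4.35 for Z00040191-1, 4.34 for Z00054445-1, 4.25 for Z00033785-1, 4.18 for Z00006822-1 and 4.11 for Z00024666-1. The 8 were chosen from probes whose values did not overlap between the stages, which held for all 511 probes at least 2-fold higher and so set none of them apart. All 8 means were higher again at E16.5. Calls for these 8 held in all 24 alternative analyses, and without E15.5 replicate 1 their log2 changes ran from 3.58 to 5.55.

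Channel signals here were rebuilt after scaling the ratio within arrays and the average of both channels between arrays, so each depends on both. So rebuilt, the reference channel, which holds the same RNA on every array, moved with some of these probes. Its change between the stages had an SD of 0.12 over all tested probes, against 0.37 for the eyelid channel, and a median of 0.07 over the 511 higher probes, whose eyelid channel rose by a median of 1.57. For the 8 highest probes the reference channel changed by -0.03 to 1.21 and the eyelid channel by 4.22 to 7.16. The reference change was 1.21 for Z00077092-1, 1.102 for Z00006822-1 and 0.83 for Z00024307-1, in the direction of the eyelid change. Its part in the ratios was not tested.

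A further group of probes was not well above background on either E14.5 array and was so on both E15.5 arrays. There were 256 such probes. They entered the test only through the stage at which they were high. Their number, and the p-values and calls given for them, are therefore descriptions and support nothing. For 4 of them a lower bound on the fold is given for the rebuilt eyelid signal. On each E14.5 array it takes the probe's own signal or, if higher, the dimmest signal that passes as above background. It can exceed the fold of the ratio where the reference channel moved the same way. Probe Z00031262-1 read -0.08 and -0.17 at E14.5 and 5.72 and 4.59 at E15.5, a ratio 39-fold higher (limma adjusted p = 0.000217). Its rebuilt eyelid signal rose 64.9-fold, and its reference channel changed by 0.74 on the log2 scale. Here the bound is the measured change itself, since the probe's own E14.5 signal was used. Probe Z00076300-1 read -0.04 and -0.12, then 5.71 and 4.01, a ratio 30.7-fold higher (limma adjusted p = 0.00105). Its rebuilt eyelid signal rose at least 58.1-fold, with a reference change of 1.00 on the log2 scale. At E16.5 they read 6.45 and 6.22, and 5.93 and 5.66, so replicate 1 of E15.5 was the nearer to the later stage in both.

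The ratios of probes Z00071877-1 and Z00026015-1 rose 24.9-fold and 20.3-fold, with log2 bounds of 4.65 and 4.32 in the rebuilt eyelid signal. Both probes separated the E15.5 replicates more than any named probe above. Z00071877-1 read -0.09 and 0.09 at the first stage, 5.999 and 3.28 at the next, and 7.88 and 7.74 at E16.5 (limma adjusted p = 0.0126). Z00026015-1 read -0.06 and -0.12, then 5.59 and 2.92, then 7.52 and 7.42 (limma adjusted p = 0.0150). The replicates of E14.5 and of E16.5 lay close together while those of E15.5 differed by over 2.5 log2 units. The calls on both probes were lost without either E14.5 array (adjusted p = 0.0703 to 0.0874) and without E15.5 replicate 1 (log2 changes of 3.28 and 3.01, adjusted p = 0.0863 and 0.103).

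The 26 probes called at least 2-fold lower included 3 that fell by over 4-fold. Probe Z00023199-1 read 5.11 and 4.30 at E14.5 and 2.05 and 2.73 at E15.5, and its log2 change was -2.32 (SE 0.30, limma adjusted p = 0.00240), or 4.98-fold lower. Probe Z00040042-1 read 4.68 and 4.398, then 1.76 and 2.88, a change of -2.22 (limma adjusted p = 0.00605). Probe Z00047077-1 had the highest level of the 3, 8.02 and 7.73 at E14.5, and read 5.11 and 6.58 at E15.5, a change of -2.03 (limma adjusted p = 0.0150). All 3 fell further to E16.5, where they read 1.15 and 1.47, 0.26 and 0.65, and 2.78 and 2.87. The reference channel of Z00047077-1 fell by 1.33, beside 3.36 in the eyelid channel. The call on Z00040042-1 was lost without E14.5 replicate 1 (-2.08, adjusted p = 0.0553). That on Z00047077-1 was lost without E14.5 replicate 1 (-1.89, adjusted p = 0.102), without E14.5 replicate 2 (-2.17, adjusted p = 0.0673) and without E15.5 replicate 1 (-1.29, adjusted p = 0.0505).

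The other 5 of the 8 lowest changes were -1.49 for Z00023710-1, -1.48 for Z00072949-1, -1.46 for Z00006534-1, -1.36 for Z00030823-1 and -1.35 for Z00031351-1. In all 8 the E15.5 replicate 1 stood below replicate 2, though in Z00023710-1 the values were nearly equal. This was the reverse of the order in the highest probes, and all 8 means were lower again at E16.5. Z00023710-1, which read 2.38 and 1.11 and then 0.25 and 0.26 (limma adjusted p = 0.0455), no longer passed in 17 of 24 alternatives, and its change was -0.85 without E14.5 replicate 1. Without E14.5 replicate 1 or without E15.5 replicate 1, the calls were also lost on Z00072949-1 (adjusted p = 0.0737 and 0.0887), Z00006534-1 (0.109 and 0.158) and Z00030823-1 (0.0720 and 0.0867). Z00030823-1 also did not pass with processed signals (adjusted p = 0.180), the software's ratio (0.155), the authors' deposited values (0.155) or the eyelid channel alone (0.0897).

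A set of 181 probes was above background at E14.5 only, likewise chosen by the stage at which they were high. The p-values and calls given for these probes are descriptions too. The largest bounds in the rebuilt eyelid signal were 1.97-fold for Z00058330-1, 1.84-fold for Z00075668-1, 1.64-fold for Z00058234-1 and 1.48-fold for Z00037772-1. The ratios of these probes were 2.03-fold, 2.04-fold, 1.63-fold and 1.39-fold lower. For Z00075668-1 and Z00037772-1 the bound is the measured change of the rebuilt eyelid signal itself. Z00058234-1 passed the test, with 0.89 and 0.63 at E14.5 and 0.14 and -0.04 at E15.5 (limma adjusted p = 0.00597). Its call was lost without E14.5 replicate 1 (-0.58, adjusted p = 0.0514) and with the authors' deposited values (adjusted p = 0.0692). For Z00058330-1 and Z00075668-1 the level was high on E14.5 replicate 1 alone, at 1.77 and 1.86 against 0.28 and 0.32 on replicate 2. Their adjusted p was 0.109 and 0.113, and they changed by -0.28 and -0.26 without that array. Without replicate 2 of E14.5 they changed by -1.76 and -1.80 and passed (adjusted p = 0.00347 and 0.000402).

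**Figure D2:**
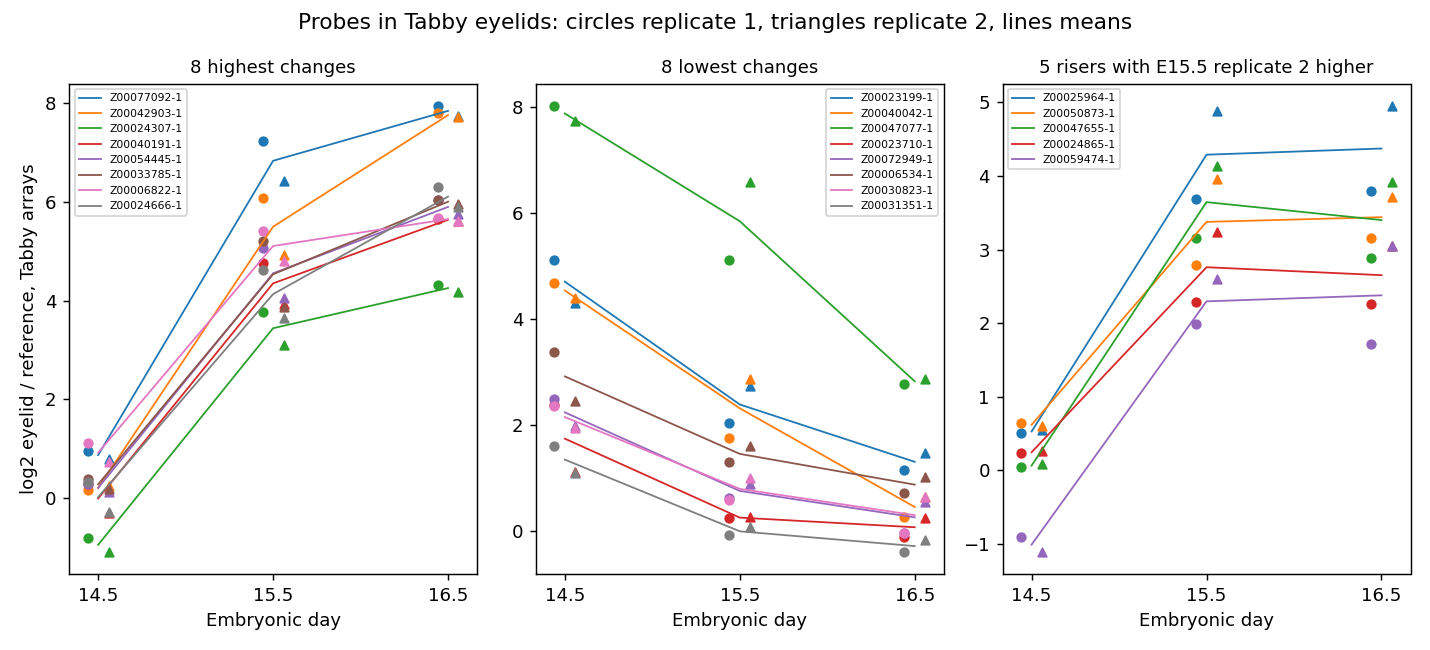
Log2 eyelid over reference on each Tabby array, by embryonic day, for the 8 probes with the highest changes (left), the 8 with the lowest (middle) and 5 risers in which E15.5 replicate 2 was above replicate 1 (right); circles are replicate 1, triangles replicate 2, and lines join the means. Circles lie above triangles at E15.5 in the left panel and below them in the middle and right panels, though they nearly coincide for Z00023710-1 in the middle panel.

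The Tabby E15.5 replicates stood at different points of the stage change. To place each array, its difference from the wild-type E14.5 mean was regressed over all tested probes on the wild-type change from E14.5 to E16.5, so that 0 is wild type at E14.5 and 1 is wild type at E16.5. The Tabby E14.5 arrays stood at 0.045 and 0.0439. Tabby E15.5 replicate 1 stood at 0.612 and replicate 2 at 0.436, a lag of 0.176, while the wild-type E15.5 arrays stood at 0.482 and 0.591. The Tabby E16.5 arrays stood at 0.964 and 0.918. The Tabby E15.5 values thus lay on either side of both wild-type values of that day. The correlation with the E14.5 Tabby mean over probes was 0.943 for replicate 1 and 0.969 for replicate 2.

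**Figure D3:**
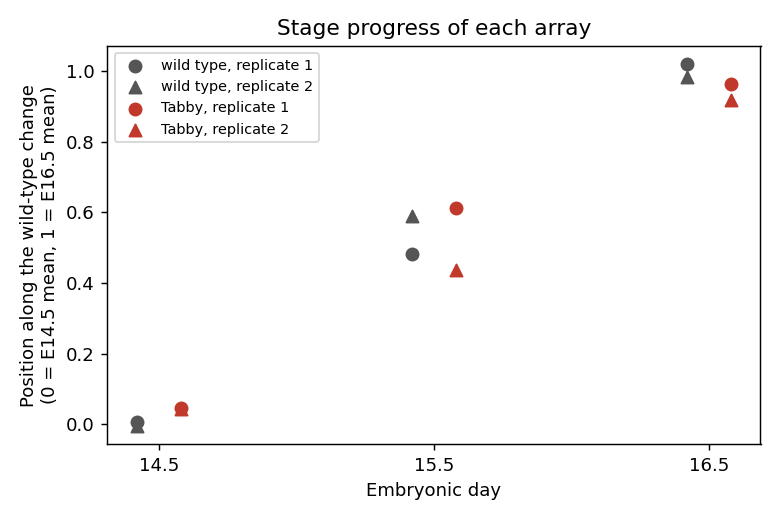
Position of each of the 12 arrays along the wild-type change from E14.5 (0) to E16.5 (1), by embryonic day; grey is wild type, red Tabby, circles replicate 1 and triangles replicate 2. Tabby E15.5 replicate 2, at 0.436, is the lowest of the 4 E15.5 arrays and Tabby replicate 1, at 0.612, the highest.

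The lag ran through most of the 511 probes that rose at least 2-fold. E15.5 replicate 1 was above replicate 2 in 492 of them, by a median of 0.45 over all 511, whereas at E14.5 replicate 1 was the higher in 287, with a median gap of 0.02. The gap exceeded 1 log2 unit in 24 of the 511 and 0.5 in 29 of the 34 that rose at least 8-fold. Over the E14.5 Tabby mean, the median rise was 1.66 on replicate 1 and 1.18 on replicate 2, and 507 and 370 of the probes were at least 2-fold up. Over the E14.5 wild-type mean the same probes rose by medians of 1.38 and 1.77 on the wild-type E15.5 arrays. Among the 26 probes that fell at least 2-fold, replicate 1 was the lower in 23, with a median gap of -0.30. The order of the replicates thus followed the direction of the stage change in both sets. Probes with large changes weigh most in the stage progress, so these gaps restate the lag and are no separate support for it.

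In 19 of the 511 probes replicate 2 was the higher, by up to 1.20. The 5 probes Z00025964-1, Z00050873-1, Z00047655-1, Z00024865-1 and Z00059474-1 had a gap over 0.5 and were picked out after their values were seen. Z00025964-1 and Z00047655-1 overlap, so they are a single item; their shared run of 32 bases is in capitals.
Z00025964-1: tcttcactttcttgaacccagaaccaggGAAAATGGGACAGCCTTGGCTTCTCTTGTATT
Z00047655-1: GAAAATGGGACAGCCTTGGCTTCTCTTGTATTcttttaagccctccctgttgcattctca

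In Tabby, Z00025964-1 read 0.51 and 0.55 at the first stage, 3.69 and 4.89 at the next, and 3.795 and 4.95 at the last. In wild type it read 2.33 and 1.39, then 4.86 and 5.09, then 4.51 and 5.73. It was already well above the reference in wild type at E14.5. Between the same-numbered Tabby arrays of E15.5 and E16.5 it differed little, and replicate 2 was the higher at both stages. Z00047655-1 followed it, with 0.04 and 0.08, then 3.16 and 4.13, then 2.89 and 3.91 in Tabby. Z00050873-1 read 0.64 and 0.60, then 2.79 and 3.96, then 3.16 and 3.72 in Tabby, beside 2.19 and 1.38 in wild type at E14.5. The log2 changes in Tabby were 3.76 for Z00025964-1, 3.58 for Z00047655-1, 3.31 for Z00059474-1, 2.76 for Z00050873-1 and 2.51 for Z00024865-1 (limma adjusted p = 0.00397, 0.00864, 0.00563, 0.0185 and 0.0162). The call was lost without either E14.5 array on Z00047655-1 (adjusted p = 0.0618 and 0.0553), Z00050873-1 (0.0999 and 0.0984) and Z00024865-1 (0.0948 and 0.0870), and without E15.5 replicate 2 on the last pair (log2 changes of 2.17 and 2.04, adjusted p = 0.0819 and 0.0722). Of the 19 probes, 11 also had replicate 2 above replicate 1 at E16.5.

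The wild-type eyelid gave the same stage comparison on arrays of its own, though on the same slides. There, 5401 of the same 32536 probes were called (16.6%), 2797 higher (8.6%) and 2604 lower (8%). That count was 1903 without wild-type E14.5 replicate 1 and 1746 without replicate 2. All 511 probes that rose at least 2-fold in Tabby were higher at E15.5 in wild type, and 488 of them (95.5%) were called. Their median log2 change was 1.40 in Tabby and 1.55 in wild type, and the change was the smaller in Tabby for 363. Of the 26 that fell, 26 were lower in wild type and 25 called, with medians of -1.18 and -1.33. As lists past 2-fold, the risers shared 455 probes, 89% of the Tabby list and 79.5% of the 572 of wild type. The fallers shared 25, or 96.2% of the Tabby list but 24.8% of the 101 of wild type. The other 76 fallers of the wild-type list were not on the Tabby list, for want of the fold or of a call. Their median change was -0.76 in Tabby against -1.15 in wild type, and 22 of them were called lower in Tabby at some smaller fold. The smaller median in Tabby follows from how the 76 were chosen and is no measure of a genotype difference. Over all tested probes the changes in the genotypes correlated at r = 0.893, a description over probes that share slides.

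**Figure D4:**
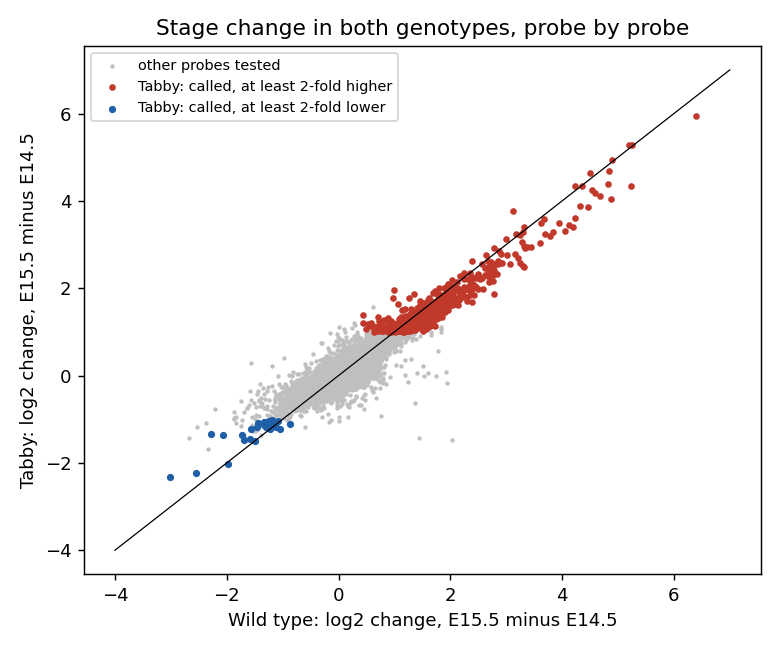
Log2 change from E14.5 to E15.5 of each tested probe in wild type (horizontal axis) and Tabby (vertical axis), 2 arrays per stage and genotype; the line marks equal changes. The 511 risers (red) and 26 fallers (blue) of Tabby lie along the line, with 363 of the risers below it.

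The difference between the genotypes in this change was tested directly, as the interaction of stage and genotype. By limma no probe passed at an adjusted p under 0.05 (0% of probes), with 807 (2.48%) at an unadjusted p under 0.05. The count was 738 without wild-type E15.5 replicate 2, 2 without Tabby E14.5 replicate 2 and 1 without Tabby E15.5 replicate 2. The wild-type E15.5 replicates were the least alike of the 6 pairs, with 381 probes over 2-fold apart against 68 in Tabby at E15.5. For the risers named above, the 95% interval of the difference remained wide: that of Z00077092-1 ran from -1.41 to 0.51 and that of Z00042903-1 from -1.49 to 1.56. That of Z00040191-1, the widest gap of the 8, was -0.88 with an interval from -1.84 to 0.08.

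The smallest unadjusted p of the interaction belonged to Z00058639-1, which rose less in Tabby. It is shown with Z00025395-1, which shares 50 of its 60 bases (capitals).
Z00058639-1: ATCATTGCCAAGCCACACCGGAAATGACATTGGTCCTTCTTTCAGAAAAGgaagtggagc
Z00025395-1: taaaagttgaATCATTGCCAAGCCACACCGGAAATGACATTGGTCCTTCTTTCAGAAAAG

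In Tabby, Z00058639-1 went from -1.79 and -1.82 to -0.85 and -0.78, a log2 change of 0.99 (SE 0.07, limma adjusted p = 0.000292). Wild type went from -2.30 and -2.45 to -0.65 and -0.79, a change of 1.66. Tabby stood above wild type on both arrays at E14.5, and the genotypes overlapped at E15.5. The difference of the changes was -0.67 (95% interval -0.90 to -0.44, unadjusted p = 0.000118) and did not pass limma's adjustment (adjusted p = 1.00). Z00025395-1 gave changes of 0.93 in Tabby and 1.66 in wild type. With median centring the difference was -0.37 (adjusted p = 0.668) and in the eyelid channel alone -0.81. The other named differences did not pass either. They were -0.42 for Z00075035-1 and -0.51 for Z00009663-1, and 0.43 for Z00057956-1, 0.47 for Z00056683-1 and 0.40 for Z00032274-1. Without wild-type E15.5 replicate 2 those of Z00058639-1, Z00075035-1 and Z00032274-1 passed, at -0.74, -0.46 and 0.46 (limma adjusted p = 0.0144, 0.0479 and 0.0373).

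A small part of the probes could be placed in genes through the mouse assembly GRCm38.p6. A run of at least 30 bases was looked for in the RefSeq windows around transcript starts, which hold 250 bases before a start and 50 after it. Of 550 probes with such a run, 489 had a single site and 303 of these lay within the span of a single gene on their strand. Since the windows cover little of the genome, other matches were not looked for, and whether a run is exonic was not known. Of the placed probes 227 were tested, for 218 genes. There were 10 called higher and 8 lower, or 7.93% against the 12.3% of all tested probes, with a median change of -0.02. The runs of the probes in Plet1 and Lamb3 are in capitals below, as the genes with the largest change and with a place on the lists of eyelid and skin genes.
Plet1 (Z00038074-1): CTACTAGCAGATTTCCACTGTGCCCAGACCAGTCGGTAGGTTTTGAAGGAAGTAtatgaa
Lamb3 (Z00023350-1): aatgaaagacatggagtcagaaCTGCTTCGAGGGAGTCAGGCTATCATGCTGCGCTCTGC

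Plet1 encodes a surface protein of epithelial progenitor cells, and its probe matched chr9:50505002-50505055, on the plus strand, 584 bases before the end of the gene. On the Tabby arrays it read -0.34 and -0.29 at the first stage, 1.996 and 1.14 at the next, and 3.39 and 3.52 at the last. The log2 change at E15.5 was 1.88 (SE 0.24, limma adjusted p = 0.00230), or 3.69-fold, and 2.21 in wild type. Both E15.5 arrays were far above the E14.5 arrays, with replicate 2 behind replicate 1.

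Lamb3 encodes the beta-3 chain of laminin-332, which anchors basal keratinocytes to the basement membrane, and its probe matched chr1:193343388-193343425, on the plus strand, 453 bases before the end of the gene. The values were -0.18 and -0.10, then 1.06 and 0.81, then, at E16.5, 1.995 and 1.58. The log2 change was 1.07 (SE 0.17, limma adjusted p = 0.00651) in Tabby and 1.04 in wild type. The call was lost without E14.5 replicate 1 and without E15.5 replicate 1, where the change was 0.95. Lamb2, which encodes another laminin beta chain, read 0.92 and 1.03 at E14.5 and 1.27 and 1.22 at E15.5, a smaller change of 0.27 (limma adjusted p = 0.0216).

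Il17rc, which encodes a subunit of the interleukin-17 receptor, was matched 25 bases before its end at chr6:113483106-113483138. Its probe read -0.93 and -0.79, then 0.76 and 0.37, a log2 change of 1.42 (SE 0.14, limma adjusted p = 0.000746). Tor1aip2, which encodes a membrane protein that activates torsin ATPases, was matched 172 bases after its start at chr1:156035836-156035895. It read 0.48 and 0.37, then 1.86 and 1.45, a change of 1.23 (SE 0.19, limma adjusted p = 0.00471). In both genes all E15.5 values were above all E14.5 values, as in all 511 risers. With 2 arrays a stage this adds nothing to a call. It also held for uncalled probes, such as that in Ndufa9 (log2 change 0.10, limma adjusted p = 0.316). The smaller rises were 0.49 for Gm36449, 0.38 for Crxos, 0.35 for Abhd6, which encodes a monoacylglycerol hydrolase, 0.32 for Tmc4 and 0.31 for 4930523C07Rik.

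The 8 lower calls were all under 1.5-fold. H4c3, a gene for replication-dependent histone H4, read 0.24 and 0.27 at E14.5 and -0.23 and -0.13 at E15.5, a log2 change of -0.43 (SE 0.06, limma adjusted p = 0.00462). Genes for this histone exist in near-identical copies, so the source of the signal is uncertain. H3f3a, which encodes the replication-independent histone H3.3, changed by -0.28 (limma adjusted p = 0.0197). Ruvbl1, which encodes an ATPase of chromatin remodelling complexes, changed by -0.26 (limma adjusted p = 0.0297) and Rab3c, which encodes a small GTPase of vesicle release, by -0.32 (limma adjusted p = 0.0376). The others were -0.46 for Gm1673, -0.41 for 1700049J03Rik and -0.26 for Gm3194. Sympk, which encodes a scaffold of the mRNA polyadenylation machinery, has 2 placed probes, of which 1 was called at -0.20 (limma adjusted p = 0.0228) and the other, at -0.16, was not (limma adjusted p = 0.0546).

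Of 240 genes listed for eyelid fusion, the ectodysplasin pathway, keratinocytes, dermis, muscle and other cell types, 4 had a placed probe. Of these 1, Lamb3, was called higher and none lower, beside 7.39% and 4.93% of all tested probes. With 4 genes the shares cannot be compared. Tyms, which encodes thymidylate synthase, read -0.24 and -0.25 at E14.5 and -0.38 and -0.35 at E15.5 (limma adjusted p = 0.403). Madcam1, which encodes an endothelial cell adhesion molecule, read 0.30 and 0.18, then 0.08 and 0.11 (limma adjusted p = 0.179). Crygs, which encodes a lens crystallin and would mark lens tissue in the sample, read 0.15 and 0.10, then 0.00 and 0.22 (limma adjusted p = 0.922). Its change was -0.02 and turned sign in 5 of 24 alternatives. Their probes sit within 16 bases of the gene's start. The levels of Eda and Edar, and the other listed markers that would check the tissue, were not analysed here, since no probe was placed in them.

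**Figure D5:**
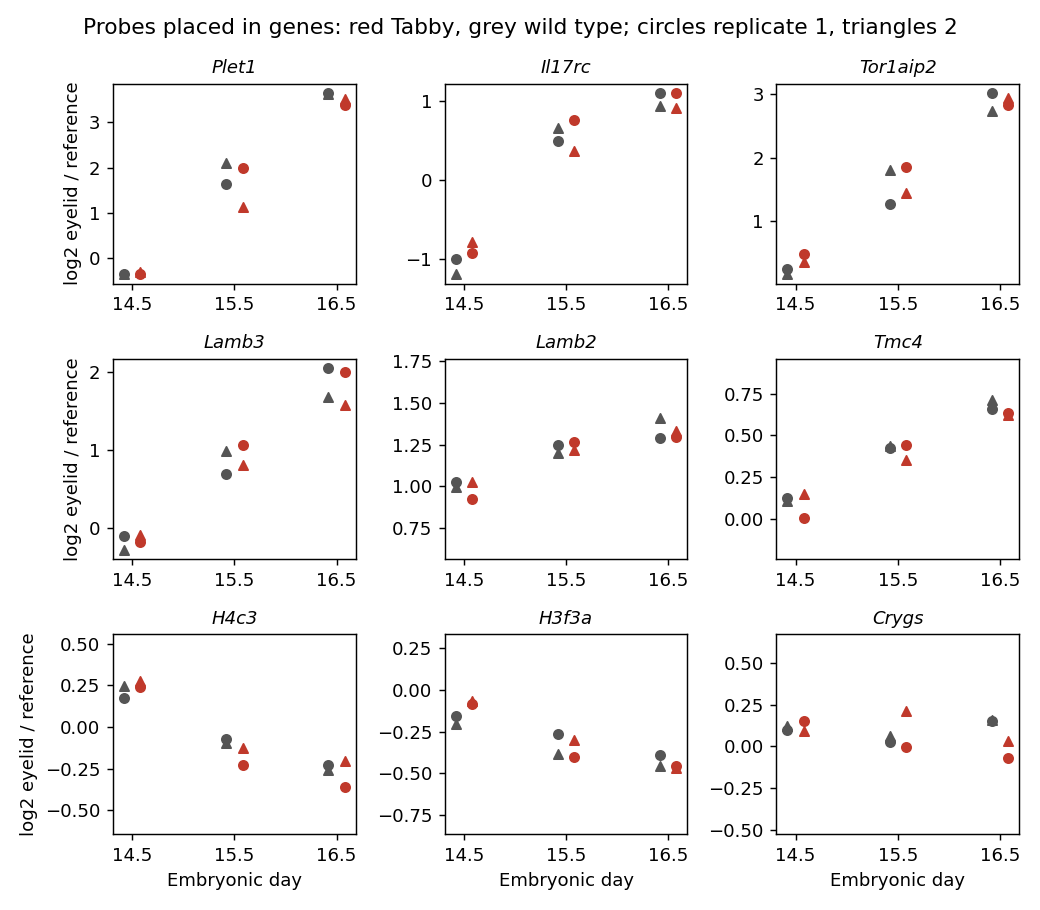
Log2 eyelid over reference on each array by embryonic day for probes placed in 9 genes; red is Tabby, grey wild type, circles replicate 1 and triangles replicate 2, and the vertical axes differ. Plet1, Il17rc, Tor1aip2, Lamb3, Lamb2 and Tmc4 were called higher at E15.5 in Tabby, H4c3 and H3f3a lower, and Crygs was not called.

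The sequences of the changed probes gave few marks of their own. The median GC content was 45% over all tested probes, 45% in the 511 risers and 44.2% in the 26 fallers. The poly(A) signal AATAAA or its variant ATTAAA, read on the probe's own strand, was in 10.3% of all tested probes, 77 of the risers (15.1%) and 5 of the fallers (19.2%). The AU-rich motif ATTTA was in 6.89% of all, 5.87% of the risers and 15.4% of the fallers. These are counts of letters in a probe and draw no line to any factor. Probes that read the same sequence on the same arrays show the spread between spots, not that between samples. In 19 pairs of identical probes the log2 changes differed by a median of 0.05 and at most 0.15. In 746 pairs sharing 30 to 59 bases the median difference was 0.03, and of the 22 such pairs with a riser, both members were risers in 21.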

How the data were processed

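The authors deposited spot intensities as scanner files; per the file headers these came from Feature Extraction (Agilent), version 9.5.1.1. Mean signals of both channels were background-corrected (normexp, offset 50) and loess-normalized within arrays in limma 3.58.1 (R 4.3.3), with 1417 control spots at weight 0 and then left out. Repeated spots were averaged. Probes were tested if well above background on both arrays of at least 1 Tabby stage. A model of 6 group means over 12 arrays (6 residual degrees of freedom) was fitted, with eBayes and Benjamini-Hochberg adjustment, calls being at 0.05. The steps were tested on simulated data. The number of arrays limits the precision. The authors' deposited value table is in log10 units, with scale unstated: its 41999 rows tracked log10 of the eyelid signal with the reference's deviation from its probe mean removed (r = 1 on every array), so values rise with eyelid RNA, and column medians were 2.33 to 2.35. It served as an alternative on the log2 scale. A further alternative, the eyelid channel alone, took the software's processed Cy3 signal, quantile-normalized between arrays. It differs from the rebuilt eyelid signal used for channel changes and bounds. The main fit did not pair arrays by replicate number, and whether the numbers pair them was not tested. Deviations of same-numbered arrays correlated at -0.0883 to 0.239 over 15 pairs of groups, 3 of them over 0.1. Probes were placed by sequence with Python. Named probes were the 8 highest and 8 lowest called changes of at least 2-fold above background on all 4 arrays without overlap, the 4 largest bounds in each direction, the 3 smallest interaction p in each direction, placed genes called and at least 2-fold, and listed genes. Members, lists and rules were chosen with earlier results of these data known.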

Additional observations from a re-analysis of the deposited data

How the results depend on the processing

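Each comparison was recomputed under up to 24 alternatives, and 23 of the 42 named probes kept the side of the threshold and the direction of their change in all of theirs. The Tabby count of 4008 became 704 with median centring and 6085 with array weights, and 903 to 4923 with an array left out. The count past 2-fold, 537, became 817 with processed signals and loess, 807 with the software's ratio, 808 with the authors' table and 1118 from the eyelid channel alone, and 307 to 711 with an array left out. The wild-type count of 5401 became 1344 with median centring and 1746 to 6768 with an array left out. The interaction count of 0 became 1 from the eyelid channel alone and 0 to 738 with an array left out. The cause was not tested. With the replicate block, 3819 probes were called in Tabby (530 past 2-fold), 5384 in wild type and 0 for the interaction, and a block by slide could not be fitted because slide and stage coincide. Stage progress stayed at 0.587 to 0.634 for E15.5 replicate 1 and 0.415 to 0.468 for replicate 2. The change of the Crygs probe, Z00025259-1, turned to 0.0166 with processed signals, 0.00119 with the software's ratio, 0.00116 with the authors' table, 0.0111 without Tabby E14.5 replicate 1 and 0.092 without Tabby E15.5 replicate 1, and ran down to -0.127 with other arrays left out. That of Z00037772-1 turned to 0.00307 without Tabby E14.5 replicate 1 and ran down to -0.947. Where a group was left with 1 array, that array was assumed to vary like the others. Signal close to background limits the bounds of the 256 and 181 probes above it at a single stage.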
